A study of Caenorhabditis elegans with 12 samples.

Results

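The infection response genes irg-1 to irg-7 of the nematode Caenorhabditis elegans were followed in whole worms given 1 of 2 compounds or the solvent alone. The 7 genes were taken by name, as the rows of the deposited count table whose WBGene identifier carries one of these names in the WBcel235 annotation. All 7 were found among the 46926 genes of the table, and all 7 were among the 13695 genes that had enough counts to be tested. The 3 groups were worms on 100 µM bromhexine, worms on 200 µM genipin and worms on DMSO, the solvent of both, with 4 libraries in each. Bromhexine is used in people to thin mucus, and genipin, found in gardenia fruit, crosslinks proteins. Every library came from hermaphrodites of the wild-type strain N2, moved onto the plates as synchronized young adults and collected after 48 h. All plates, those of the controls included, carried FUDR, an inhibitor of DNA synthesis that stops progeny from developing, and the worms had been raised on the E. coli strain OP50-1 with streptomycin. The labels name no pathogen in any group. The labels place all libraries in 1 batch. Whether the 4 samples of each treatment were grown as separate cultures is not stated, and the p-values given here measure only the spread between these samples, in part or whole possibly technical.

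The irg genes are named for their induction when worms feed on the pathogen Pseudomonas aeruginosa, and their transcripts are used as readouts of innate immunity, mostly in the intestine. They are known to answer to different regulators. For irg-1 and irg-2, induction by the pathogen depends on the bZIP transcription factor ZIP-2, and irg-1 is also induced when protein synthesis is blocked. For irg-4, irg-5 and irg-6, which encode proteins with a CUB-like domain, expression depends on the p38 kinase PMK-1, which acts below TIR-1, NSY-1 and SEK-1 and above the transcription factor ATF-7. The nuclear receptor NHR-86 and the Mediator subunit MDT-15 are also known to act on p38-dependent genes such as irg-4. For irg-7, a long gene, a role in p38 immunity and in the long life of worms without a germ line is known.

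The genes lie apart from one another on 3 chromosomes of WBcel235. Chromosome V holds irg-1 (WBGene00015574, start 3523587, end 3524679, plus strand), irg-2 (WBGene00016783, start 4042181, end 4043601, plus strand), irg-3 (WBGene00018760, start 2592591, end 2595062, plus strand) and irg-5 (WBGene00009429, start 13737010, end 13738474, minus strand). Chromosome IV holds irg-4 (WBGene00008584, start 12435833, end 12438236, plus strand) and irg-6 (WBGene00007864, start 12912722, end 12914969, minus strand). On chromosome X lies irg-7 (WBGene00018237, start 3235754, end 3243636, minus strand), with 23 exons and 6651 coding bases, against 636 to 1545 coding bases in the other 6. No annotated gene overlaps any of the 7, and none of their 84 count values carried decimals, the mark of reads divided between genes.

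Libraries held 20.3 to 28.1 M counts, and the 7 genes were counted 43 to 31075 times in a library. Levels are given as CPM, counts per 1 M counts after TMM scaling of the libraries. The libraries of a group differed from each other beyond counting noise. One library stood apart from its group. Genipin replicate 1 held 7 genes that are high with bromhexine and at or near 0 in DMSO (cyp-35B2, cyp-35B3, T10B5.8, Y73C8C.10, R09E12.9, H25K10.4 and clec-68) at a median of 3.23% of their bromhexine mean, against 0.176% to 0.279% in the other 3 genipin libraries. For the same genes the DMSO libraries had medians of 0.0795% to 0.114%. Of these genes, clec-68 was raised in every genipin library, at 4.16 to 10.8 CPM, against 0.0912 to 0.224 CPM in DMSO. It was called higher with genipin (log2 fold change 5.75 ± 0.42, adjusted p = 9.7e-06, edgeR), so it does not mark replicate 1 alone. For cyp-35B2, cyp-35B3 and T10B5.8 too, every genipin library lay above every DMSO library. The lowest genipin libraries had 1.48, 0.350 and 1.87 CPM, against at most 0.776, 0 and 1.46 CPM in DMSO. None of these was called with genipin (adjusted p = 0.188 to 0.581, edgeR). Because of the medians, log2 fold changes of irg-1 to irg-7 with genipin are also given without genipin replicate 1. Each tissue whose markers were listed (intestine, epidermis, germ line, body wall muscle, pharynx, neurons and sperm) had counts of every marker in every group.

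Bromhexine divided the 7 genes. The CUB-like genes irg-4, irg-5 and irg-6 and the long gene irg-7 rose, irg-1 and irg-2 fell, and irg-3 did not pass the test. By edgeR's quasi-likelihood test, with Benjamini-Hochberg adjustment over the 13695 tested genes, 4 of the 7 were higher and 2 were lower than in DMSO at an adjusted p under 0.05. Of all tested genes 19% were higher and 21.8% lower, 40.8% in all. The bromhexine and DMSO libraries did not overlap for 6 of the 7 genes, against 35.9% of all tested genes (16.2% with bromhexine above and 19.7% with bromhexine below). The median log2 fold change was 1.06 over the 7 genes and 0.00 over all tested genes. In bulk RNA of whole worms, fewer cells of a type and less RNA per cell cannot be told apart.

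**Figure D1:**
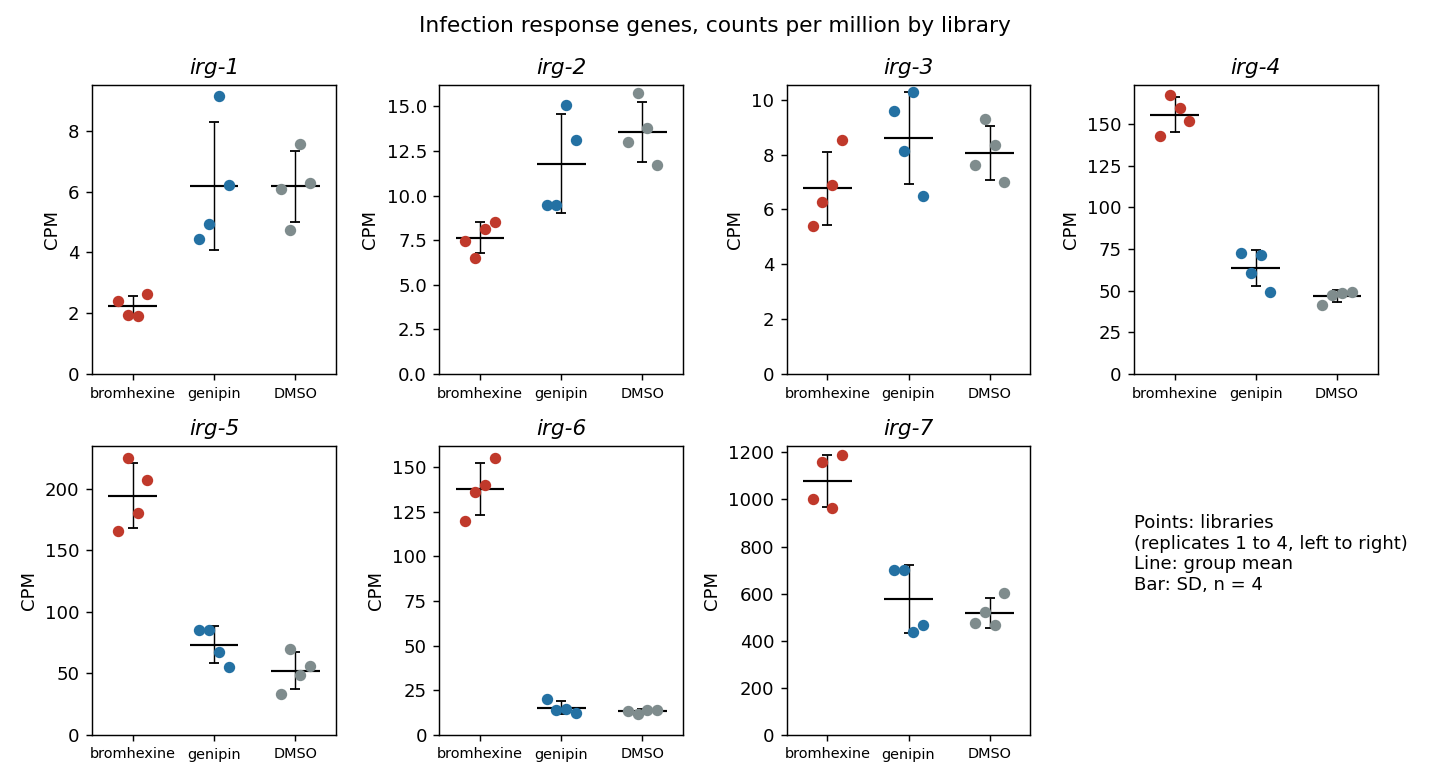
CPM of irg-1 to irg-7 (vertical axis, from 0) in each of the 4 libraries of bromhexine, genipin and DMSO worms, with the group mean as a line and the SD as a bar. The bromhexine libraries lie above both other groups for irg-4, irg-5, irg-6 and irg-7, and below both for irg-1 and irg-2. For irg-3 the bromhexine libraries reach from 5.39 CPM, below every other library, to 8.52 CPM, within the DMSO range.

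Of the CUB-like genes, irg-6 moved most. It stood at 120, 136, 140 and 155 CPM in bromhexine replicates 1 to 4, at 20.3, 14.0, 14.2 and 12.01 CPM in genipin replicates 1 to 4, and at 13.5, 11.9, 14.1 and 13.8 CPM in DMSO replicates 1 to 4. The lowest bromhexine library was thus several times the highest of the other 8. The mean was 138 ± 14.3 CPM with bromhexine and 13.3 ± 0.962 CPM in DMSO (SD, n = 4 each), a rise of 10.3-fold (log2 fold change 3.37 ± 0.13, standard error, adjusted p = 1.44e-10, edgeR). By size of increase it ranked 63 among the 13695 genes tested.

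Its relatives irg-4 and irg-5 rose by less. For irg-4 the bromhexine libraries had 143, 167, 160 and 152 CPM, the genipin libraries 72.7, 60.5, 71.2 and 49.3 CPM, and the DMSO libraries 41.3, 47.4, 48.9 and 49.2 CPM. The bromhexine group lay far above the others, and the lowest genipin library lay just above the highest DMSO library. The rise was 3.33-fold, to 155 ± 10.5 CPM with bromhexine, against 46.7 ± 3.68 CPM in DMSO (log2 fold change 1.73 ± 0.10, adjusted p = 9.95e-09, edgeR). For irg-5 the bromhexine libraries had 165, 226, 181 and 207 CPM, the genipin libraries 85.5, 85.3, 67.5 and 54.8 CPM, and the DMSO libraries 33.4, 69.5, 48.9 and 56.3 CPM. All bromhexine libraries lay above all others, while the genipin and DMSO libraries overlapped. The rise was 3.75-fold, to 195 ± 26.8 CPM with bromhexine, against 52.0 ± 15.1 CPM in DMSO (1.91 ± 0.19, adjusted p = 2.89e-06, edgeR). Of the 7 genes irg-5 varied most between DMSO libraries, with a coefficient of variation of 29.0%, against 7.86% for irg-4 and 7.22% for irg-6.

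The 95% intervals of the log2 fold changes of irg-4 (1.51 to 1.96) and irg-5 (1.51 to 2.31) covered much the same range, and that of irg-6 (3.09 to 3.65) lay above both. The ratio of irg-6 to irg-4 within a library, each level per kb of exon, was 0.583 ± 0.0600 with bromhexine, 0.156 ± 0.0214 with genipin and 0.188 ± 0.0206 in DMSO (SD, n = 4 each). The ratio of irg-5 to irg-4 was 1.23 ± 0.121 with bromhexine, 1.15 ± 0.189 with genipin and 1.09 ± 0.274 in DMSO. The first ratio differed between bromhexine and the other groups by more than its spread, and the second did not.

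The long gene irg-7 had 1002, 1160, 963 and 1188 CPM in the bromhexine libraries, 702, 699, 437 and 467 CPM in the genipin libraries, and 474, 523, 468 and 605 CPM in the DMSO libraries. Every bromhexine library was above every other library, while 2 of the genipin libraries lay above the DMSO range and 2 just below it. The mean was 1078 ± 112 CPM with bromhexine and 517 ± 63.2 CPM in DMSO, a rise of 2.08-fold (log2 fold change 1.06 ± 0.15, adjusted p = 7.42e-05, edgeR).

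In the opposite direction, irg-1 had 2.41, 1.96, 1.92 and 2.64 CPM in the bromhexine libraries, from 43 to 69 counts, then 4.46, 4.94, 9.14 and 6.22 CPM in the genipin libraries and 6.07, 4.75, 7.57 and 6.28 CPM in the DMSO libraries. The highest bromhexine library was below the lowest of the other 8. The gene fell to 2.23 ± 0.352 CPM with bromhexine, against 6.17 ± 1.15 CPM in DMSO, 2.76-fold lower (log2 fold change -1.46 ± 0.23, adjusted p = 0.000202, edgeR). For irg-2, also dependent on ZIP-2, the bromhexine libraries had 7.44, 6.50, 8.15 and 8.52 CPM, the genipin libraries 9.49, 9.50, 15.1 and 13.1 CPM, and the DMSO libraries 13.0, 15.7, 13.8 and 11.7 CPM. Its bromhexine libraries were again the lowest, and 2 genipin libraries lay below the DMSO range. It was 1.77-fold lower, at 7.65 ± 0.891 CPM with bromhexine and 13.6 ± 1.68 CPM in DMSO (-0.82 ± 0.16, adjusted p = 0.00102, edgeR).

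For irg-3, also named for its induction by P. aeruginosa, the groups overlapped. The bromhexine libraries had 5.39, 6.28, 6.90 and 8.52 CPM, the genipin libraries 9.58, 8.14, 10.3 and 6.49 CPM, and the DMSO libraries 7.61, 9.28, 8.35 and 6.99 CPM. Bromhexine replicates 1 and 2 lay below every genipin and DMSO library, replicate 3 lay below the DMSO range, and replicate 4 lay within it. The log2 fold change against DMSO was -0.24 ± 0.17, with a 95% interval of -0.60 to 0.11, and it did not pass the test (adjusted p = 0.259, edgeR).

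**Figure D2:**
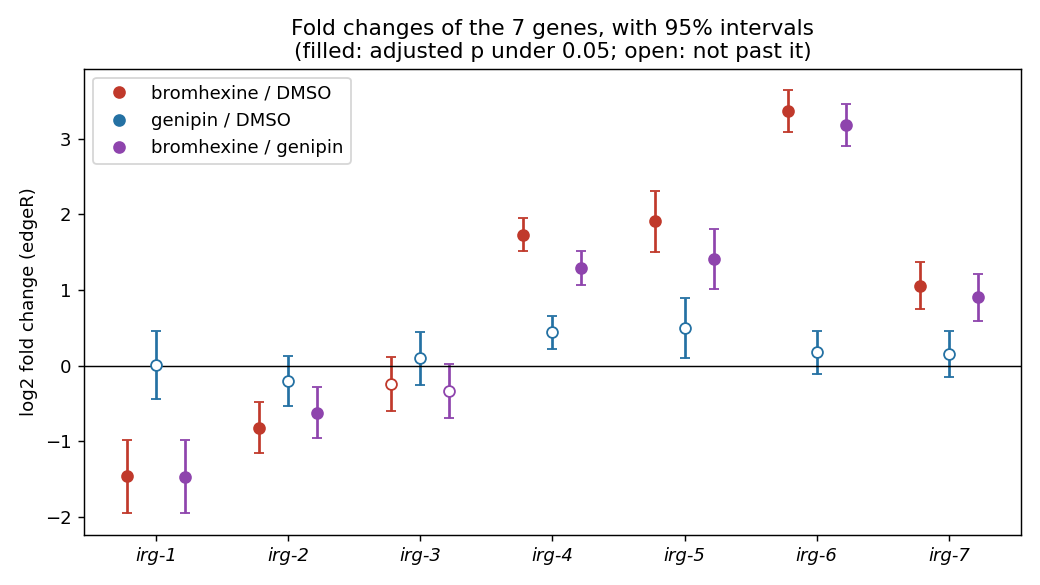
Log2 fold changes (vertical axis) of irg-1 to irg-7 for bromhexine over DMSO, genipin over DMSO and bromhexine over genipin, with 95% intervals from the edgeR fit of 12 libraries. Filled points passed an adjusted p of 0.05: 6 genes for bromhexine over DMSO, the same 6 for bromhexine over genipin, and none for genipin over DMSO, where irg-4 and irg-5 have unadjusted intervals above 0.

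With genipin, 0 of the 7 genes passed the test by edgeR, against 0.0365% of all tested genes (0.0292% higher and 0.0073% lower). At an unadjusted p under 0.05 there were 2, irg-4 and irg-5, and 1 was called by DESeq2 (irg-4) and 0 by limma voom. The mean of irg-4 was 63.5 ± 10.9 CPM with genipin and 46.7 ± 3.68 CPM in DMSO (log2 fold change 0.44 ± 0.10, 95% interval 0.22 to 0.66, unadjusted p = 0.0007, adjusted p = 0.299, edgeR). It was the only one of the 7 whose genipin and DMSO libraries did not overlap, against 3.07% of all tested genes (1.5% higher and 1.58% lower). The adjusted p of irg-4 was 0.0396 by DESeq2, 0.0268 by edgeR without genipin replicate 4 and 0.813 without genipin replicate 1, the library that stood apart, where the log2 fold change was 0.36.

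The mean of irg-5 was 73.3 ± 14.9 CPM with genipin and 52.0 ± 15.1 CPM in DMSO (log2 fold change 0.50 ± 0.18, adjusted p = 0.965, edgeR). The 95% intervals of the remaining log2 fold changes with genipin were -0.45 to 0.45 for irg-1, -0.53 to 0.13 for irg-2, -0.26 to 0.45 for irg-3, -0.10 to 0.46 for irg-6 and -0.15 to 0.46 for irg-7. Without genipin replicate 1 the log2 fold changes were 0.13 for irg-1, -0.12 for irg-2, 0.04 for irg-3 and 0.41 for irg-5. The values of irg-6 and irg-7, 0.18 and 0.16 with all libraries, were then 0.00 and 0.04, and none of the 7 genes passed.

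Set directly against genipin, the same 6 genes passed the test with bromhexine, 4 higher and 2 lower, where 15% of all tested genes were higher and 19.5% lower, 34.5% in all. The bromhexine and genipin libraries did not overlap for these 6 genes, against 27.7% of all tested genes (11.2% higher and 16.5% lower). The doses differed, 100 µM of bromhexine and 200 µM of genipin. The log2 fold change of bromhexine over genipin was 3.19 ± 0.13 for irg-6 (adjusted p = 2.91e-10, edgeR), 1.41 ± 0.18 for irg-5 (adjusted p = 5.92e-05) and 1.29 ± 0.10 for irg-4 (adjusted p = 3.11e-07). It was 0.90 ± 0.15 for irg-7 (adjusted p = 0.000314, edgeR), -0.62 ± 0.16 for irg-2 (adjusted p = 0.00822) and -1.47 ± 0.23 for irg-1 (adjusted p = 0.00025). Without genipin replicate 1 all 6 passed, with log2 fold changes of 3.36 for irg-6, 1.49 for irg-5, 1.37 for irg-4, 1.01 for irg-7, -0.71 for irg-2 and -1.59 for irg-1. For irg-3 the value was -0.34 ± 0.17 (adjusted p = 0.126, edgeR), and it passed without bromhexine replicate 4 (-0.47, adjusted p = 0.0351). The comparisons of each compound with DMSO share the 4 DMSO libraries.

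Per length, the 7 genes spread over a wide range of levels, and the order changed with bromhexine. In DMSO the order, in CPM per kb of exon, was irg-7 (75.8 ± 9.26, SD, n = 4), irg-5 (46.6 ± 13.5), irg-4 (42.4 ± 3.34), irg-2 (11.7 ± 1.44), irg-3 (11.3 ± 1.38), irg-1 (8.22 ± 1.54) and irg-6 (7.94 ± 0.573). There irg-5 and irg-4 did not differ beyond their spread, nor did irg-2 and irg-3, nor irg-1 and irg-6, and the highest irg-1 library reached the lowest of irg-2 and irg-3. With bromhexine the order was irg-5 (174 ± 24.02), irg-7 (158 ± 16.4), irg-4 (141 ± 9.51), irg-6 (82.1 ± 8.54), irg-3 (9.46 ± 1.85), irg-2 (6.58 ± 0.766) and irg-1 (2.97 ± 0.469). The ranges of irg-5, irg-7 and irg-4 overlapped there, irg-6 stood below all 3 of them and above the lower 3, and irg-1 was below all others.

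With genipin the order was irg-7 (84.5 ± 21.1), irg-5 (65.6 ± 13.4), irg-4 (57.6 ± 9.88), irg-3 (12.04 ± 2.34), irg-2 (10.1 ± 2.38), irg-6 (9.01 ± 2.13) and irg-1 (8.25 ± 2.81 CPM per kb), with overlapping ranges within the upper 3 and within the lower 4. Among the tested genes, the level per length of irg-6 lay above 88.1% of them with bromhexine and above 45.6% in DMSO. The corresponding shares for irg-1 were 33.8% with bromhexine and 46.1% in DMSO.

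**Figure D3:**
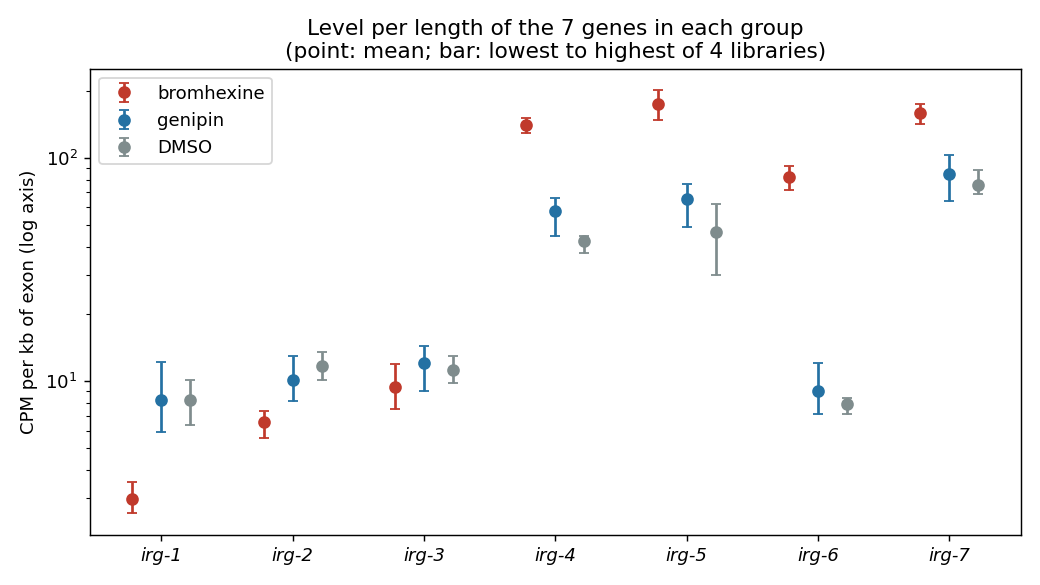
Level of each gene per kb of exon (vertical axis, logarithmic) in bromhexine, genipin and DMSO worms, as the mean and the range of 4 libraries. With bromhexine irg-6 joins the upper genes at 82.1 CPM per kb, against 7.94 in DMSO, and irg-1 stands lowest at 2.97.

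Most genes listed with the p38 cascade, which acts above irg-4, irg-5 and irg-6, fell with bromhexine. Of 13 listed genes, the cascade with its known inputs and partners, 9 fell and 2 rose, against 21.8% and 19% of all tested genes. The list had a median log2 fold change of -0.41, against 0.00 over all genes. It was not sorted by whether a gene activates or restrains the cascade. Those that fell include vhp-1 (-0.41 ± 0.09) and olrn-1 (-0.99 ± 0.17, the lowest of the list). Kinase activity was not measured, and transcript levels do not give it. The adaptor gene tir-1 was at 208 ± 29.0 CPM with bromhexine and 394 ± 46.2 CPM in DMSO (log2 fold change -0.92 ± 0.13, adjusted p = 8.18e-05, edgeR). The kinase genes sek-1 (-0.59 ± 0.07), pmk-1 (-0.75 ± 0.10) and nsy-1 (-0.35 ± 0.09) fell as well, while atf-7, which encodes the transcription factor at the end of the cascade, had 261 ± 9.90 CPM with bromhexine and 257 ± 4.68 CPM in DMSO (0.02 ± 0.05, adjusted p = 0.761). The receptor gene fshr-1, which is known to act in intestinal immunity beside the cascade, rose (0.58 ± 0.09, adjusted p = 0.000194, edgeR).

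Of other genes used as readouts of PMK-1, more fell than rose. Of 10 such genes 9 were tested, of which 5 fell and 1 rose with bromhexine, against 21.8% and 19% of all tested genes. Their median log2 fold change was -0.35, against 0.00 over all genes. Under the alternative settings described below, 4 to 6 of them fell. Of those that fell, lys-2 (-0.35 ± 0.12) had overlapping groups and did not pass without bromhexine replicate 1 (adjusted p = 0.0833, edgeR). Another, clec-4, had low levels, at 0.419 ± 0.140 CPM with bromhexine and 1.13 ± 0.288 CPM in DMSO. C17H12.8 had 57.6, 75.3, 91.2 and 109 CPM in the bromhexine libraries, against 262, 278, 256 and 217 CPM in the DMSO libraries (log2 fold change -1.60 ± 0.14, adjusted p = 1.06e-06, edgeR). The groups were far apart, in the direction opposite to irg-6. The gene sysm-1, also called T24B8.5, fell by 1.36 on the log2 scale (± 0.19), and catp-3, also called C09H5.2, fell by 1.46 (± 0.15). The C-type lectin gene clec-67 rose (0.59 ± 0.11, adjusted p = 0.00104, edgeR). The C-type lectin gene clec-60, at 0.452 ± 0.180 CPM with bromhexine and 0.180 ± 0.0589 CPM in DMSO, had too few counts to be tested. Without bromhexine replicate 1, or without genipin replicate 3, it passed the count filter and was called higher (adjusted p = 0.0245 and 0.0445, edgeR), so that 2 genes of the list rose.

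Among the bZIP factors of the ZIP-2 branch, zip-2 fell along with irg-1 and irg-2. It stood at 285, 270, 281 and 333 CPM in the bromhexine libraries, against 437, 372, 467 and 430 CPM in the DMSO libraries, without overlap (log2 fold change -0.55 ± 0.09, adjusted p = 0.000476, edgeR). Of the 5 genes on this list 2 fell, zip-2 and cebp-1 (-0.68 ± 0.14), and 1 rose, zip-4 (0.22 ± 0.07, adjusted p = 0.0159), whose call was lost without bromhexine replicate 3 (adjusted p = 0.0556). Of all tested genes 21.8% fell and 19% rose. The partner gene cebp-2 did not pass (0.19 ± 0.11, adjusted p = 0.181, edgeR). Without bromhexine replicate 3, 0 genes of the list rose, and without DMSO replicate 4, 2 did, zip-4 and zip-1 (adjusted p = 0.0323 and 0.0235, edgeR).

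Of 10 listed transcription regulators, atf-7 again among them, 2 rose and 1 fell with bromhexine, against 19% and 21.8% of all tested genes, and the median log2 fold change was 0.04. The insulin pathway factor gene daf-16 rose (0.37 ± 0.08, adjusted p = 0.0021, edgeR), and nhr-86 rose to 46.3 ± 2.08 CPM with bromhexine, against 39.3 ± 3.56 CPM in DMSO (0.24 ± 0.07, adjusted p = 0.0153). The nuclear receptor gene nhr-49 was lower (-0.15 ± 0.05, adjusted p = 0.0362, edgeR), a call lost when any 1 of 6 libraries was left out (bromhexine replicates 2, 3 and 4 and DMSO replicates 1, 3 and 4, adjusted p of up to 0.109), with RLE scaling and without a filter. The intestinal GATA factor gene elt-2 (-0.04 ± 0.13, adjusted p = 0.816, edgeR) and mdt-15 (0.05 ± 0.07, adjusted p = 0.559) did not pass. With genipin 0 of the 36 tested genes on these 4 lists passed by edgeR, 1 at an unadjusted p under 0.05, and DESeq2 and limma voom called 0 each.

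Markers of several tissues were called as well, and their counts are to be read against the 19% of all tested genes that rose and the 21.8% that fell with bromhexine. Of the 8 intestine markers 3 rose with bromhexine, the esterase gene ges-1 (1.44 ± 0.08), the peptide transporter gene pept-1 (0.94 ± 0.17) and vha-6 (0.32 ± 0.10, adjusted p = 0.0222, edgeR), the last not past the test without bromhexine replicate 4, DMSO replicate 1 or DMSO replicate 2. The other 5 did not pass. The summed level of the 8 markers was 590 to 744 CPM with bromhexine, 493 to 610 CPM with genipin and 480 to 575 CPM in DMSO, so that the bromhexine libraries lay above the DMSO libraries. Of 6 germ line markers 5 rose (sums of 4580 to 5869 CPM with bromhexine and 3875 to 4701 CPM in DMSO), and of 6 epidermis markers 1 rose and 4 fell (413 to 613 CPM with bromhexine and 461 to 556 CPM in DMSO). Of 4 body wall muscle markers 2 rose, the myosin gene myo-3 (1.55 ± 0.15, adjusted p = 2.59e-06, edgeR) and unc-22 (0.91 ± 0.22), and 1 fell, hlh-1 (-0.71 ± 0.19). Their summed level was 535 to 687 CPM with bromhexine, 331 to 691 CPM with genipin and 240 to 526 CPM in DMSO. Bromhexine and DMSO thus did not overlap, but only narrowly. The largest part of the sums was unc-54, at 403 to 545 CPM with bromhexine and 194 to 441 CPM in DMSO. By itself unc-54 overlapped and did not pass (0.58 ± 0.23, adjusted p = 0.0531, edgeR). Of 2 tested pharynx markers myo-2 rose (0.46 ± 0.17) and pha-4 fell (-0.94 ± 0.11), of 5 neuron markers 1 rose and 2 fell, and the 3 tested sperm markers msp-31, msp-45 and fer-1 had values of 0.75 ± 0.37, 0.92 ± 0.78 and 0.01 ± 0.31, with adjusted p from 0.119 to 0.978 (edgeR). The part of these shifts in the changes of irg-1 to irg-7 was not tested.

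**Figure D4:**
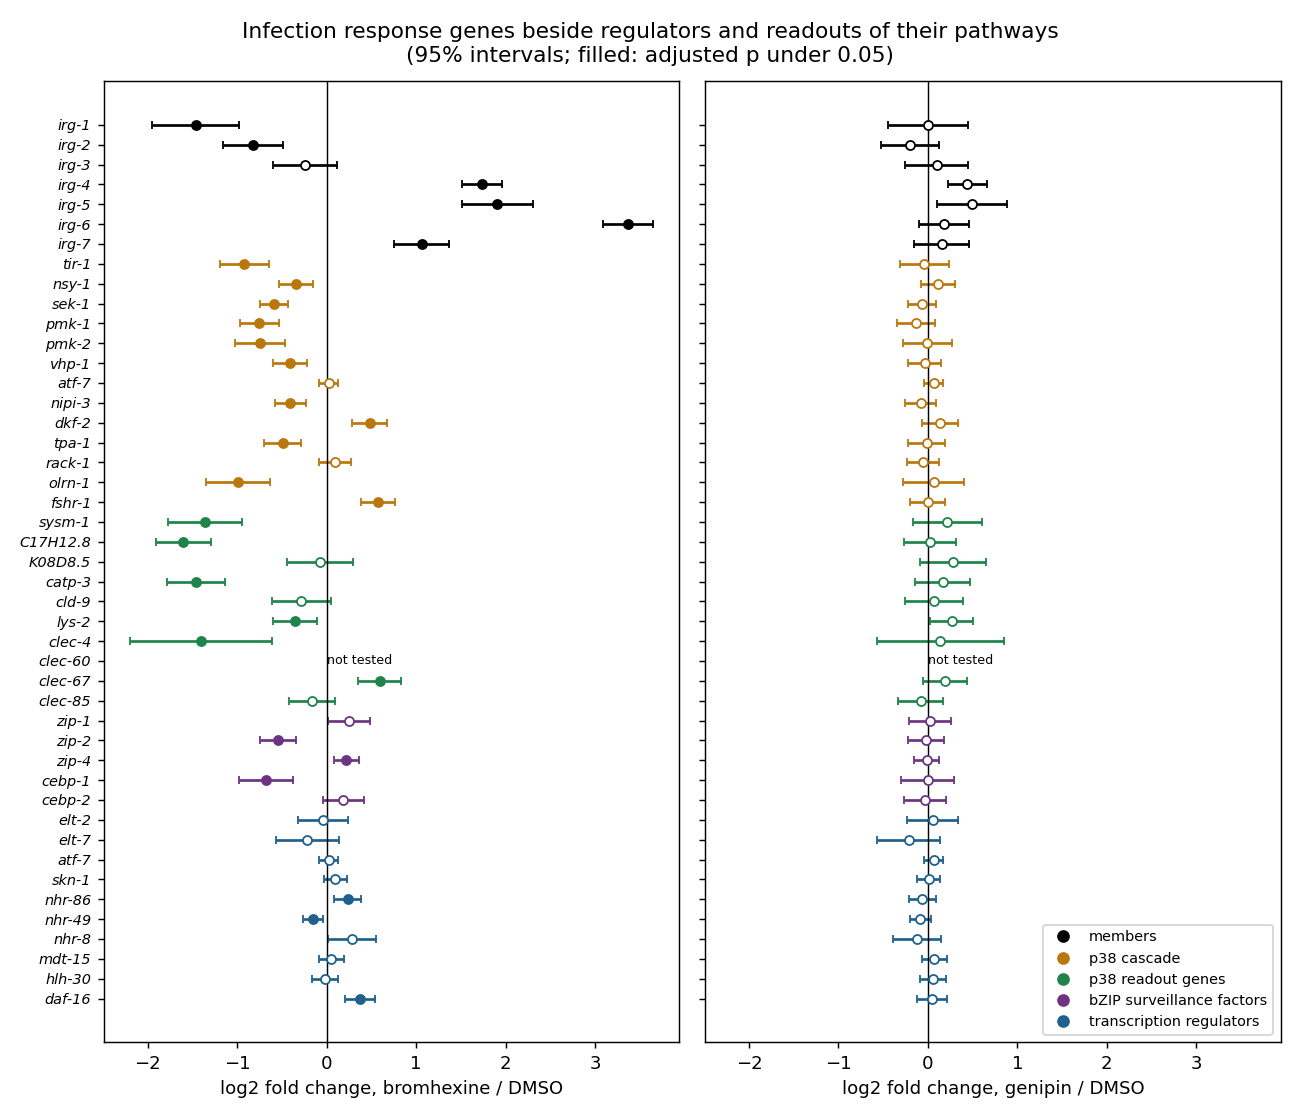
Log2 fold changes (horizontal axes, with 95% intervals) of the 7 infection response genes and of 4 lists of related genes, for bromhexine over DMSO on the left and genipin over DMSO on the right, where filled points passed an adjusted p of 0.05. With bromhexine irg-4 to irg-7 lie to the right while 9 of the 13 genes listed with the p38 cascade fell, and with genipin no gene shown passed.

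Some genes beside the 7 moved the same way, others moved the opposite way, and the tested genes beside irg-6 did not pass against DMSO. The 3 nearest protein-coding genes on each side gave 42 neighbours, of which 29 had enough counts to be tested. With bromhexine 3 of the 29 rose and 11 fell, 14 in all. Of all tested genes 19% rose and 21.8% fell, 40.8% in all, so a called neighbour is not in itself particular to these loci. Without DMSO replicate 3, 7 fell. With genipin 0 passed by edgeR, DESeq2 or limma voom, and 3 had an unadjusted p under 0.05.

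Around irg-6, which rose most, the 4 tested neighbours (K08D8.3, K08D8.4, K08D8.5 and C32H11.4) had log2 fold changes between -0.20 and -0.07 with bromhexine, and none passed by edgeR. Against genipin K08D8.4 (-0.54, adjusted p = 0.00845) and C32H11.4 (-1.01, adjusted p = 0.00793, edgeR) were lower with bromhexine, opposite to irg-6. Against DMSO, K08D8.4 was at -0.12 with bromhexine and 0.42 with genipin, and C32H11.4 at -0.20 and 0.81. The genipin values did not pass (adjusted p = 0.818 and 0.727, edgeR). Most of the distance between the compounds thus lay on the genipin side of DMSO. The other 2 neighbours had too few counts to be tested. Of these srz-15, 809 bases away, had 37 counts over the bromhexine libraries, 10 over the genipin libraries and 2 over the DMSO libraries. Its bromhexine libraries (0.205 to 0.803 CPM) lay above all others only narrowly. Genipin replicate 4 was at 0.194 CPM, and each of these values rests on few counts. The nearest, K08D8.5, also one of the PMK-1 readouts above, ends 592 bases away and had 14.2 ± 3.43 CPM with bromhexine and 14.97 ± 3.27 CPM in DMSO. Beside irg-5, F35E12.6, which lies 762 bases away, rose by less than irg-5 (0.49 ± 0.10, adjusted p = 0.00123, edgeR), to 178 to 249 CPM with bromhexine, against 140 to 161 CPM in DMSO. Beside irg-7, F28B4.3 on the same strand, 345 bases away, rose to 500 to 547 CPM with bromhexine, against 193 to 319 CPM in DMSO (0.87 ± 0.12, adjusted p = 0.000104, edgeR).

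Beside irg-4, which rose, col-130 fell by 2.24 on the log2 scale (± 0.36, adjusted p = 0.000257, edgeR) and C25G4.2 by 0.37 (± 0.13), and dct-17 beside irg-5 fell by 0.28 (± 0.10). On the other side of irg-7, F40F4.7, also on the same strand and 249 bases away, fell (-0.59 ± 0.07, adjusted p = 1.46e-05, edgeR). Farther out on the side of F28B4.3, F28B4.4 fell as well (-0.97 ± 0.30). The 3 genes at lower coordinates than irg-2 fell with it, C49G7.10 by 1.22, C49G7.12 by 1.34 and C49G7.13 by 1.34 on the log2 scale, and those tested on its other side, phat-3 (0.35 ± 0.23) and phat-7 (0.37 ± 0.27), did not pass. Beside irg-1 only T24A6.7, 590 bases away, had enough counts to be tested, and it fell by 1.84 on the log2 scale (± 0.36, adjusted p = 0.0011, edgeR). Next to irg-3, which did not pass, genes were called in both directions. There C29G2.6 rose (0.90 ± 0.14, adjusted p = 0.000231, edgeR), F53E10.5 (-0.71 ± 0.19) and acr-17 (-0.76 ± 0.27) fell, and F53E10.6 did not pass (-0.05 ± 0.06). The calls of dct-17, acr-17, C25G4.2 and F28B4.4, which count among the 11 that fell, were each lost without at least 1 library.

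**Figure D5:**
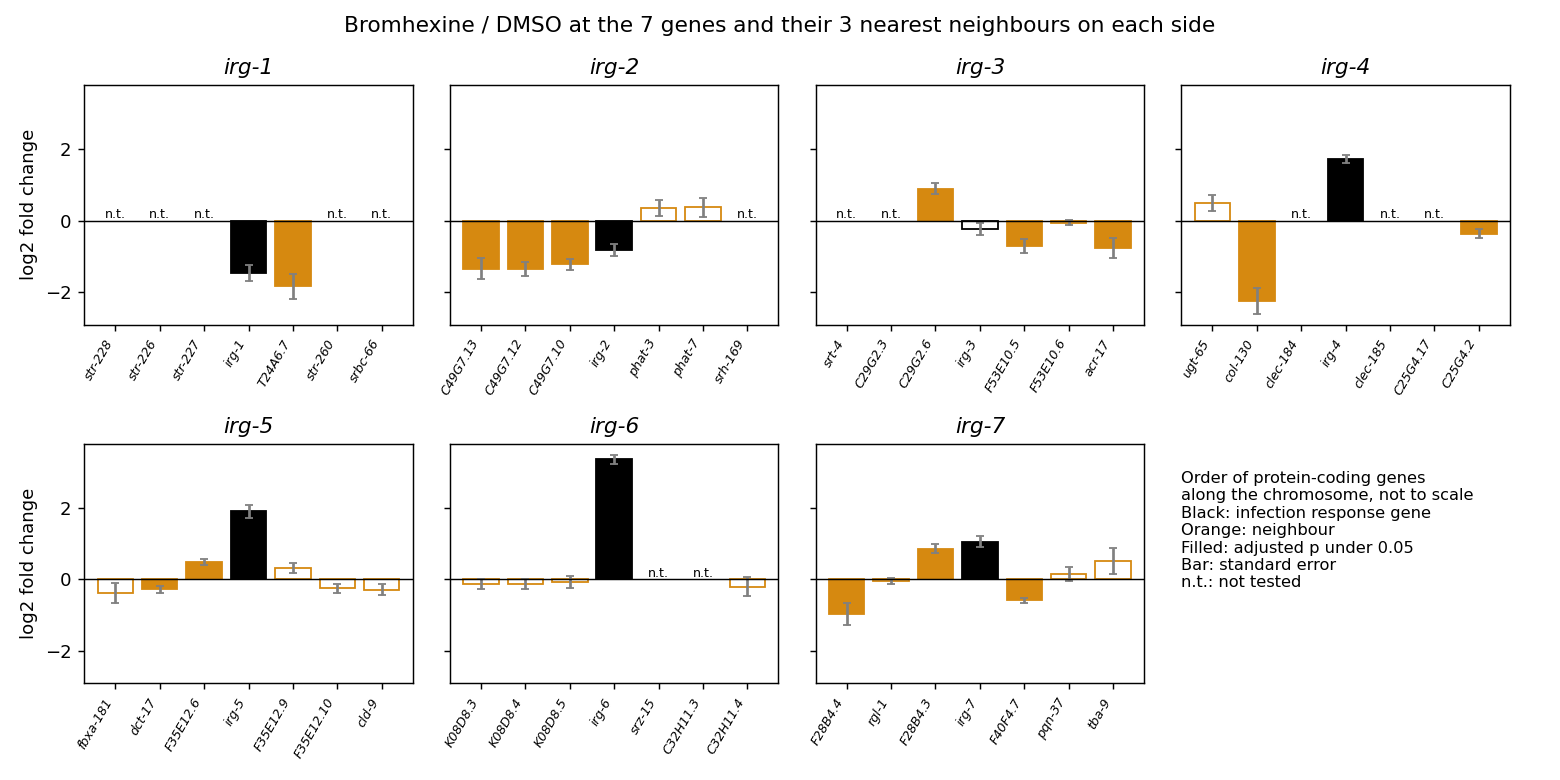
Log2 fold changes of bromhexine over DMSO (vertical axes, bars from 0 with standard errors) for each infection response gene in black and its 3 nearest protein-coding neighbours on each side in orange, in chromosome order and not to scale, where filled bars passed an adjusted p of 0.05. The tested neighbours of irg-6 stay near 0 beside its 3.37, while the 3 genes left of irg-2 lie between -1.34 and -1.22.

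The genes whose pattern over the 12 libraries was most like each of the 7 were ranked by Pearson's r of log2 CPM, over the 10367 genes that were high enough to be compared. These values describe 12 libraries that share depth and the split between bromhexine and the rest, and the same r over the 8 libraries without bromhexine is therefore given beside each. The second r is no independent check, because the genes were picked by an r that includes the same 8 libraries. Genipin replicate 1, which held genes high with bromhexine, is among the 8. There irg-4 (72.7 CPM), irg-5 (85.5 CPM), irg-6 (20.3 CPM) and irg-7 (702 CPM) had their highest values outside bromhexine. Likewise irg-1 (4.46 CPM) and irg-2 (9.49 CPM) had their lowest values outside bromhexine there. For irg-5, irg-7 and irg-2, genipin replicate 2 was close behind (85.3, 699 and 9.50 CPM). The part of genipin replicate 1 in these values was not tested. The gene most like irg-6 was cyp-35C1, a cytochrome P450 gene (r = 0.999, and 0.923 without bromhexine), followed by W01A11.1 (0.996 and 0.747) and cyp-34A9 (0.996 and 0.679). The genes most like irg-4 were cyp-35B1 (0.992 and 0.927), the P-glycoprotein gene pgp-13 (0.990 and 0.912) and cyp-35A1 (0.987 and 0.866). The closest to irg-5 was again pgp-13 (0.973 and 0.867), and the closest to irg-7 was T25C12.3 (0.984 and 0.898).

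The gene most like irg-1 was tir-1 of the p38 cascade (r = 0.995, and 0.981 without bromhexine), ahead of pgp-6 (0.989 and 0.966) and the kinesin gene bmk-1 (0.986 and 0.977). With genipin, tir-1 stood at 308, 349, 478 and 397 CPM in replicates 1 to 4, the same order of libraries as irg-1. The closest to irg-2 was scpl-3 (0.968 and 0.909). The gene most like irg-3 was F23A7.8 (0.944 and 0.945), whose log2 fold change with bromhexine, like that of irg-3, did not pass the test (-0.30, adjusted p = 0.288, edgeR).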

How the data were processed

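The deposited table holds expected counts per gene, made by the authors with STAR 2.7.11b and RSEM 1.3.3 on WBcel235 after FastQC, per the submitters' processing notes. RSEM divides reads that match several genes, and 2.06% of the values carry decimals. For annotation release, trimming and strand setting, the sources used here give nothing. Symbols, positions and exon lengths came from the WBcel235 annotation of Ensembl release 115, which held all 46926 genes. Columns were joined to samples by library name.

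After rounding, edgeR 4.0.16 under R 4.3.3 was run with filterByExpr on the 3 groups, TMM scaling, and 1 quasi-likelihood fit of the 12 libraries with group as the only term. The Benjamini-Hochberg adjustment covered the 13695 genes tested. A standard error is the size of a log2 fold change divided by the square root of its F. The procedure was tested on simulated data. Alternatives used DESeq2 1.42.0, limma 3.58.1 voom, other scalings, filters and a stricter threshold, the replicate number as a block, only the libraries compared, and each library left out. One more, chosen after seeing the data, subtracted from genipin replicate 1 the 3% of bromhexine counts estimated from 7 genes.

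The 7 genes and the lists were chosen with earlier results of these data known. Text names up to 4 called genes of each list with the smallest p, known direct regulators, 3 neighbours on each side and, among genes with a mean log2 CPM of 1 or more, the 3 of highest r. Protein relatives by sequence, also planned, were not analysed here. Intervals are 95%.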

Additional observations from a re-analysis of the deposited data

Results flagged for a closer look

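In groups of 4 libraries, a value was singled out where its gap to the nearest other library took up more of the group's range than Dixon's 95% limit allows. Of 129 groups of named genes 11 were singled out, and chance gives about 1 in 20. None belonged to irg-1 to irg-7. With bromhexine, sek-1 was at 37.3 CPM in replicate 4 against 33.2 to 33.8 in the others, elt-2 at 15.9 CPM in replicate 4 against 11.6 to 12.2, and pept-1 at 38.1 CPM in replicate 4 against 28.9 to 30.5. In bromhexine replicate 1, fshr-1 was at 29.7 CPM against 32.3 to 32.8 and nhr-49 at 113.9 CPM against 107.6 to 108.4. In genipin replicate 1, fshr-1 was at 25.2 CPM against 19.7 to 20.4, catp-3 at 96.3 CPM against 69.1 to 71.4, and ges-1 at 33.4 CPM against 29.1 to 29.5. In genipin replicate 3, C49G7.10 was at 46.2 CPM against 32.1 to 34.1. In DMSO, T24A6.7 was at 9.49 CPM in replicate 3 against 3.86 to 4.81, and F28B4.3 at 193 CPM in replicate 2 against 303 to 319.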

How the results depend on the processing

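Under all 22 alternatives 4 of the 7 genes were called higher and 2 lower with bromhexine against DMSO, with log2 fold changes of 3.31 to 3.43 for irg-6, 1.68 to 1.77 for irg-4, 1.74 to 2.08 for irg-5, 1.01 to 1.14 for irg-7, -1.57 to -1.35 for irg-1 and -0.89 to -0.74 for irg-2. With genipin, 1 of the 7 was called by DESeq2 (irg-4), and leaving out single libraries gave 0 to 1. The cause was not tested. The log2 fold change of irg-1 with genipin, 0.00, was -0.0379 by limma voom, -0.0031 without a filter, -0.016 with the replicate block and -0.0022 with the 8 libraries compared, and -0.24 to 0.13 with single libraries left out. That of atf-7 with bromhexine was -0.027 with upper quartile factors and -0.0049 to 0.039 without single libraries, and that of elt-2 was -0.16 to 0.019. At an adjusted p under 0.01, 1295 genes of the whole table were higher and 1893 lower with bromhexine against DMSO, 855 and 1602 against genipin, 7 neighbours were lower, and 0 bZIP factors and 1 listed regulator were higher. Single libraries took the genes higher with bromhexine than with genipin, 2057, to between 1301 and 2578. With genipin against DMSO, 4 genes were higher and 1 lower, against 14 and 17 by DESeq2, 9 and 8 without a filter, 1 higher by limma voom and 2 to 9 and 0 to 8 without single libraries. The replicate numbers did not meet the bar for pairing, a correlation of deviations over 0.1 in every same-numbered pair: 3 of 12 pairs did, from -0.16 to 0.30. All 3 were between genipin and DMSO, whose 4 pairs had 0.015 to 0.30 and where 6 of 8 comparisons placed a library closest to its own number, against 0 of 8 between bromhexine and either group. This is a hint from the data, not the design. With the replicate block, 4 of the 7 genes were higher and 2 lower with bromhexine, and 0 were called with genipin. With the estimated share subtracted from genipin replicate 1, irg-6 stood at 0.09 and irg-4 at 0.43 with genipin, and neither passed. At 43 to 69 counts in the bromhexine libraries, irg-1 was the least deeply counted.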

Other observations

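The annotation holds 1 more gene of this name, irg-8 (WBGene00022645, chromosome V, start 415870, end 417706), chosen after its values were seen. It had 225 ± 35.4 CPM with bromhexine, 274 ± 35.4 CPM with genipin and 265 ± 17.3 CPM in DMSO (SD, n = 4 each). The bromhexine and DMSO libraries overlapped, and it did not pass the test (log2 fold change -0.24 ± 0.11, adjusted p = 0.0904, edgeR).

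Within groups, irg-7 and irg-2 tended to deviate from their group means in opposite directions. Their r was -0.78 over the 12 libraries, the most negative of the 21 pairs among the 7 genes. In genipin replicates 1 and 2 irg-7 was at 702 and 699 CPM and irg-2 at 9.49 and 9.50 CPM. In replicates 3 and 4 irg-7 was at 437 and 467 CPM and irg-2 at 15.1 and 13.1 CPM. Not every library of the other groups went this way. Both irg-7 and irg-2 were above their means in bromhexine replicate 4 (1188 and 8.52 CPM) and DMSO replicate 2 (523 and 15.7 CPM). Both were below them in bromhexine replicate 1 (1002 and 7.44 CPM) and DMSO replicate 1 (474 and 13.0 CPM). For irg-1 and irg-7 r was -0.62. The most positive pair was irg-5 and irg-7 (r = 0.66), followed by irg-4 and irg-6 (0.64). These values are a description of 12 libraries, with no test.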
